A study of Mus musculus with 21 samples.

Results

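The 4 genes described here encode the ErbB receptor family: *Egfr*, *Erbb2*, *Erbb3* and *Erbb4*. They were chosen by gene symbol, as 4 of the 49652 genes counted in each tumor, with earlier results of these data known. ErbB receptors are transmembrane tyrosine kinases that pair with one another when a ligand of the EGF or neuregulin type binds. ErbB2 has no known ligand and serves as the preferred partner, ErbB3 has little kinase activity of its own and recruits PI3 kinase strongly, and ErbB4 is linked to lobuloalveolar differentiation and lactation. In breast cancer, amplification of *ERBB2* defines a subtype, and the ErbB2 and ErbB3 pair is known as its strongest signaling unit.

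RNA was measured in bulk in 21 mammary tumors of female virgin mice, 9 from the control cohort and 12 from the RhoC cohort. Every mouse carried FloxNeoNeuNT and MMTV-CreNLST. FloxNeoNeuNT places a cDNA of activated neu, the rat form of *Erbb2*, behind the endogenous *Erbb2* promoter, and a Cre transgene driven by the MMTV promoter switches it on in mammary epithelium. The 12 RhoC tumors also carried R26(RhoC/+), a Cre-dependent wildtype *RhoC* cDNA with eGFP in the Rosa26 locus. Of the 9 controls, 7 carried Gata4(loxP/+) and 2 (N-15 and N-17) did not, so that the *Gata4* allele differs between most controls and all RhoC tumors and its part cannot be told apart from that of *RhoC* in the pooled comparison. The controls came from 9 mice, while the RhoC tumors came from 8, with 4 tumors (R-13, R-14, R-15 and R-16) from mouse P497 and 2 (R-6 and R-7) from mouse N9255. The labels give no age, and tumors were taken at endpoint. The paper reports that mammary tumors arose at a much younger age in the RhoC cohort. The part of age therefore cannot be told apart from that of *RhoC* either.

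Libraries held 47309780 to 100741339 counted reads. Over the 210 pairs of tumors, the lowest chi-square per degree of freedom was 254, so no library repeated another. *Rhoc* itself had a median of 50.7 CPM (reads scaled to a common library size by TMM) in controls, from 25.98 to 172, and a median of 88.2 CPM among RhoC tumors, from 22.8 to 148. R-2, labelled RhoC, had the lowest *Rhoc* of all 21 tumors, the control N-8 had the highest and the control N-6 had 145 CPM, and 4 of 9 controls were above the RhoC median. N-15, labelled as a NeuNT control, had by far the lowest *Erbb2*. Without R-2 no receptor passed either, with log2 fold changes, RhoC minus control, of 0.32 for *Egfr*, −0.65 for *Erbb2*, −0.12 for *Erbb3* and 0.98 for *Erbb4* (edgeR adjusted p 0.426 to 0.793). Without N-8 or without N-6 no receptor passed (edgeR adjusted p 0.524 to 0.992). Values without N-15 stand beside the results it changes. Epithelial markers were present in every tumor: the summed level of 7 luminal genes was 1509 to 5940 CPM in controls and 1154 to 3694 CPM in RhoC tumors. The 4 basal markers varied far more, from 7.98 to 3004 CPM in controls and from 4.55 to 17131 CPM in RhoC tumors.

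The promoter of *Erbb2* is shown first because in these mice it drives both the endogenous gene and the knocked-in NeuNT. The RefSeq sequences cover 250 bases before and 50 after the annotated start on GRCm38.p6, at chr11:98412234-98412533 (+ strand) for *Erbb2*, and at chr1:69108010-69108309 (− strand) for *Erbb4*, the member whose level varied most. Sequences were matched for 3 of the 4 genes, *Erbb3* being the one without an entry. Capitals mark AGGAAG, the core bound by ETS factors, on either strand.

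Erbb2: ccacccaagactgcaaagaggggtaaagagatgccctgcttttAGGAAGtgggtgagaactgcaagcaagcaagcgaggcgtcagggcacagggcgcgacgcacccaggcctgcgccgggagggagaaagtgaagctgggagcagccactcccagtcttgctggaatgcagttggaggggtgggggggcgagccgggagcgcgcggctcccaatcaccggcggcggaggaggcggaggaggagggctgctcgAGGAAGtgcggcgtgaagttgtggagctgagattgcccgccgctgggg

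Erbb4: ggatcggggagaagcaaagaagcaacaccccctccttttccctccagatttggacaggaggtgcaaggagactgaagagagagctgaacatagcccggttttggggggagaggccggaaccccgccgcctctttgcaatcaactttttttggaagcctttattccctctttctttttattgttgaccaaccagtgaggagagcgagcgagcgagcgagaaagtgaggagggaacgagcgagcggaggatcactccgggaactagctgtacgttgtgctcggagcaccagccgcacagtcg

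The *Erbb2* window held 2 matches to AGGAAG, and the *Erbb4* window held 0. The window of *Egfr* (chr11:16751953-16752252, + strand) held 1. Of all 32851 promoter windows of this length, 35.4% held at least 1 match. GCCNNNGGC, a form of the AP-2 site, and GATA were also searched on both strands, and neither was found in the 3 windows, against 16.6% and 57.9% of all windows. No matches overlapped. A match describes letters and does not show that a factor is bound.

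Levels of different genes were compared per length, as the FPKM values deposited with the series. By this measure *Erbb2* was the highest of the 4 receptors in 18 of 21 tumors and *Erbb3* in the other 3, with *Egfr* below *Erbb3* and *Erbb4* lowest in all 21. Median FPKM over the 21 tumors was 162 for *Erbb2*, 59.2 for *Erbb3*, 18.7 for *Egfr* and 0.279 for *Erbb4*. *Erbb2* reads come from the endogenous and the knocked-in copy together, so the *Erbb2* level is a sum over both as far as rat-derived reads aligned to the mouse gene. Its 3′ end overlaps *Mien1*, on the other strand, by a few bases only.

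**Figure D1:**
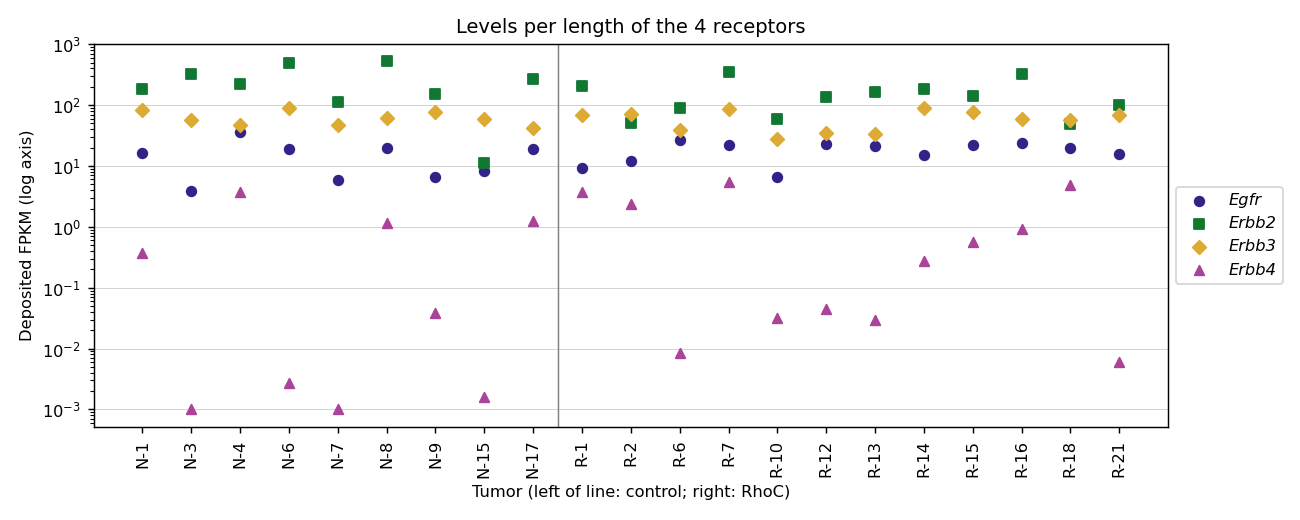
Deposited FPKM (log axis) of the 4 receptors in each tumor, with controls left of the line and RhoC tumors right of it. *Erbb2* lies on top except in N-15, R-2 and R-18, and *Erbb4* is lowest throughout; tumors listed at 0 for *Erbb4* (N-3 and N-7) are drawn at the lower edge, at 0.001.

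Averaged within each of the 17 mice on a log2 scale with 0.1 FPKM added, *Erbb2* exceeded *Erbb3* by 1.28 ± 1.35 (SD, n = 17 mice), and was higher in 14 of them (exact sign-flip permutation test, two-sided, p = 0.00235). *Erbb3* exceeded *Egfr* by 2.09 ± 0.95 and *Egfr* exceeded *Erbb4* by 4.89 ± 1.88, each in 17 of 17 mice (exact p = 1.53e-05, the smallest this test can give). The order was read from these same values. The step from *Erbb2* to *Erbb3* was smaller than its SD over mice, with 3 mice the other way, while the other steps were larger than theirs. The tumors where *Erbb3* led were N-15, at 59.2 FPKM of *Erbb3* against 11.1 of *Erbb2*, R-2, at 71.1 against 49.9, and R-18, at 57.5 against 48.8.

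*Erbb2* (ENSMUSG00000062312.5, chr11:98412470-98437716) ranged in controls from 57.9 CPM through a median of 1166 to 2725, and in RhoC tumors from 256 through a median of 734 to 1851. All 12 RhoC tumors lay inside the control range, but 5 of them were below every control other than N-15, and 2, R-7 at 1851 CPM and R-16 at 1690 CPM, were above the control median. In the edgeR fit across 19315 genes the log2 fold change, RhoC minus control, was −0.73 (SE 0.46; 95% interval −1.69 to 0.22; adjusted p = 0.370). The same fit called 43 genes at an adjusted p under 0.05, or 0.223% of those tested, and 0 of the 4 receptors were among them. Without N-15 it called 346 of 19579 genes, again with 0 of the 4 receptors. At an unadjusted p under 0.05, reached by 20.5% of all genes tested, the count of receptors was also 0.

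A single control set the spread of *Erbb2*. N-15 had 57.9 CPM, against 600 CPM in the next control, N-7, and its *Grb7* and *Mien1*, the genes next to *Erbb2*, stood at 42.2 and 16.9 CPM, the lowest of the controls. N-15 was 1 of the 2 controls without the *Gata4* loxP allele, and its *Gata4* was at 50.04 CPM. The other such control, N-17, had 7.56 CPM of *Gata4* and 1456 CPM of *Erbb2*, and the Gata4(loxP/+) controls N-3 and N-8 had 36.5 and 29.8 CPM of *Gata4* with 1708 and 2725 CPM of *Erbb2*. Over mice, with tumors of a mouse averaged, *Erbb2* was at 9.87 ± 1.67 log2 CPM in controls (SD, n = 9) and 9.09 ± 0.87 in RhoC mice (SD, n = 8), a difference of −0.78 (exact permutation test over 24310 labelings, two-sided, p = 0.266, adjusted over the 4 receptors p = 0.450). Without the mouse of N-15 it was −1.28 (exact permutation p = 0.00948), and with the 7 Gata4(loxP/+) controls alone it was −1.26 (exact permutation p = 0.0169). These 2 p are not adjusted over the 4 receptors, and both settings leave out the control with the lowest *Erbb2*. Of 17 settings with 1 mouse left out, only that without the mouse of N-15 had a p under 0.05. In the edgeR fit, which uses tumors, the log2 fold change without N-15 was −0.89 (adjusted p = 0.167).

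*Erbb3* (ENSMUSG00000018166.8, chr10:128567523-128589652) had the smallest spread over all tumors: the SD of log2 CPM over the 21 tumors was 0.50, against 0.84 for *Egfr*, 1.30 for *Erbb2* and 3.92 for *Erbb4*. Its controls ran from 262 CPM through a median of 356 to 548, and its RhoC tumors from 171 through a median of 381 to 537. The lowest 4 tumors were all of the RhoC cohort (R-10 at 171, R-13 at 195, R-12 at 215 and R-6 at 230 CPM), and the other 8 RhoC tumors lay within the control range. The log2 fold change was −0.09 (SE 0.21; 95% interval −0.53 to 0.36; adjusted p = 0.842). It was −0.0051 without N-6 and −0.15 without R-14. Over mice the difference was −0.19 (exact permutation p = 0.384), and −0.06 without the mouse of R-10 (exact permutation p = 0.749).

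*Egfr* (ENSMUSG00000020122.16, chr11:16752203-16918158), the receptor for EGF, TGF-alpha and amphiregulin, ranged in controls from 45.0 CPM through a median of 186 to 405, and in RhoC tumors from 76.8 through a median of 228 to 300. Of the RhoC tumors, 12 of 12 fell within the control range and 7 of 12 were above the control median. Controls fell into a lower set of 4 (N-3 at 45.0, N-7 at 66.2, N-9 at 76.0 and N-15 at 94.1 CPM) and 5 from 186 CPM upward, which was not tested. The log2 fold change was 0.28 (SE 0.33; 95% interval −0.40 to 0.97; adjusted p = 0.645), and it was 0.16 without N-3 and 0.55 without N-4. Over mice the difference was 0.33 (exact permutation p = 0.450), from 0.13 without the mouse of N-3 to 0.52 without that of N-4, and it also moved by over 1.5 times without the mouse of N-7 (0.20) or R-10 (0.49).

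*Erbb4* (ENSMUSG00000062209.15, chr1:68032186-69108059), a neuregulin receptor, varied more than any other member. It was under 1 CPM in 10 tumors, 5 of 9 controls and 5 of 12 RhoC tumors, and over 3 CPM in the other 11, with no tumor between 0.543 and 3.43 CPM. N-3 and N-7 had 0 reads, which allows up to 0.0463 and 0.0600 CPM (3 reads of each library, for counting error only). The highest levels were in R-7 at 66.3, R-18 at 59.5, N-4 at 45.2 and R-1 at 44.1 CPM, so both cohorts held tumors at either end. The cohort medians were 0.487 CPM in controls and 5.28 CPM in RhoC tumors. The log2 fold change was 1.06 (SE 1.34; 95% interval −1.72 to 3.83; adjusted p = 0.673), and it was 2.10 without N-4 and 0.67 without R-7. Over mice the difference was 2.18 (exact permutation p = 0.262).

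**Figure D2:**
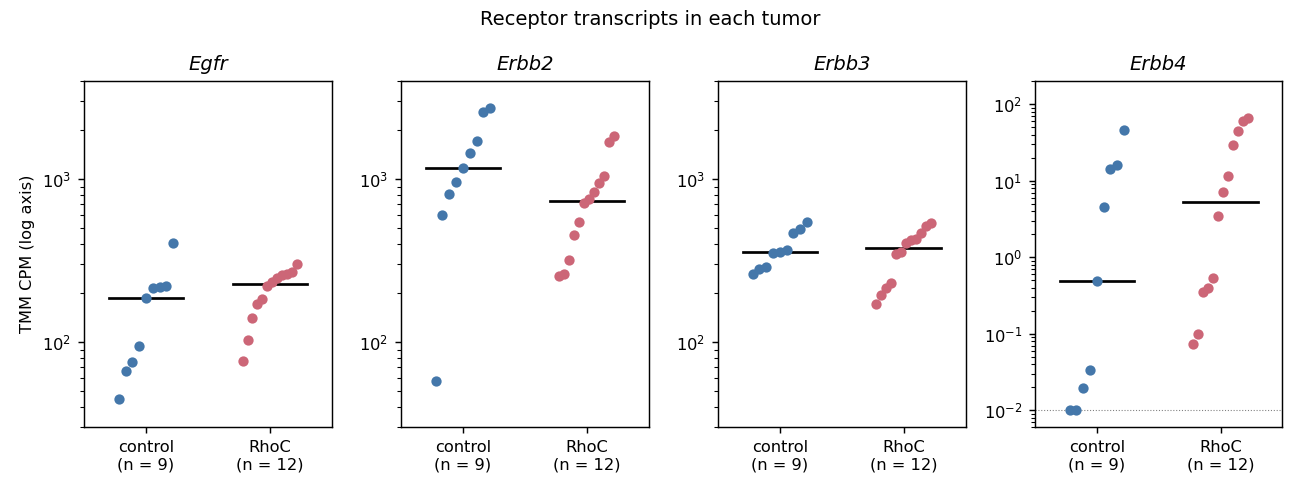
TMM-scaled CPM (log axis) of each receptor in the 9 control and 12 RhoC tumors, 1 point per tumor, with the median as a line; tumors at 0 for *Erbb4* are drawn at 0.01 on the dotted line, and the *Erbb4* panel has its own axis. The cohorts overlap for all 4 receptors, N-15 lies apart for *Erbb2*, and *Erbb4* is spread over several orders of magnitude in both cohorts.

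Tumors that arose in 1 mouse differed in the receptors as well. In mouse N9255, R-7 had 1851 CPM of *Erbb2* and 66.3 CPM of *Erbb4*, and R-6 had 457 and 0.1003 CPM, a ratio of 4.05 for *Erbb2* and 661 for *Erbb4*. *Erbb3* was at 516 and 230 CPM in the same pair, a ratio of 2.24, and *Egfr* was closer, at 249 and 300 CPM, a ratio of 1.21. Across the 4 tumors of mouse P497, the highest level was 1.58 times the lowest for *Egfr*, 2.23 times for *Erbb2*, 2.75 times for *Erbb3* and 32.3 times for *Erbb4*. In both mice *Erbb3* thus varied more than *Egfr*, unlike over all tumors, and *Erbb4* varied within mice as well as between them.

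Pathology codes come from the study's list of tumors and not from the sample labels, and some describe several tumors of a mouse, so these values were not tested. In the 5 complex adenocarcinomas (CAC), *Egfr* ran from 76.8 to 405 CPM with a median of 262. In the 3 tumors coded solid nodular carcinoma (SNC) it was 66.2, 76.0 and 103 CPM, all below the 3 squamous cell carcinomas (SCC), at 171, 235 and 300 CPM. N-8, with SNC in a mixed code, at 219.9 CPM, and R-15, coded SNC or PDA, at 259 CPM, lay inside the SCC range. The 3 SCC are all RhoC tumors, and 2 of them came from mouse P497.

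*Erbb4* was close to 0 in all 3 tumors coded as poorly differentiated adenocarcinoma (PDA) alone, at 0 in N-3, 0.0332 in N-6 and 0.0195 in N-15 CPM, all of them controls. Tumors whose code names PDA together with another type went the other way, at 14.4 in N-8 and 29.6 CPM in R-2. So did R-15, at 7.13 CPM, whose code is undecided between SNC and PDA. The low level thus depends on keeping those 3 apart. In SNC it was 0 in N-7, 0.487 in N-9 and 44.1 CPM in R-1, in CAC it ran from 0.397 to 66.3 CPM, and in SCC from 0.1003 to 3.43 CPM. *Erbb2* was widest in PDA, at 57.9, 1708 and 2568 CPM, and narrow in SNC, at 600, 806 and 1049 CPM. *Erbb3* overlapped between all codes with more than 1 tumor. The spindle cell tumor N-1 (SCT) had 496 CPM of *Erbb3*, which only N-6 exceeded among the controls, and 965 CPM of *Erbb2*.

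**Figure D3:**
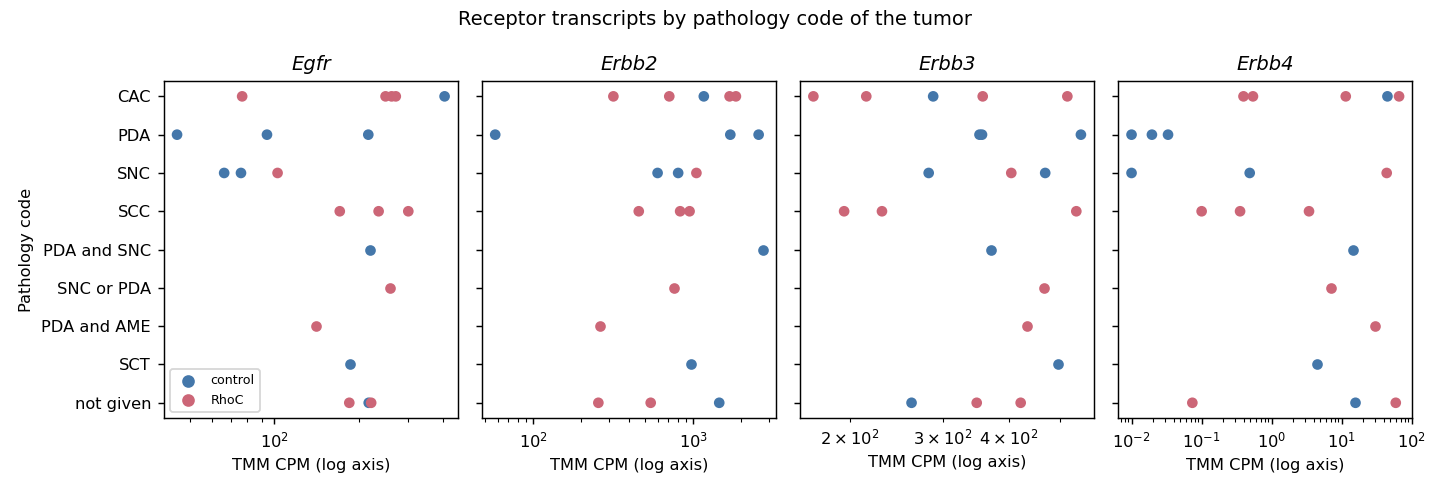
TMM-scaled CPM (log axes) of each receptor by pathology code, 1 point per tumor, coloured by cohort; CAC, complex adenocarcinoma; PDA, poorly differentiated adenocarcinoma; SNC, solid nodular carcinoma; SCC, squamous cell carcinoma; AME, adenomyoepithelioma; SCT, spindle cell tumor. The points of *Egfr* coded SNC alone lie below the SCC points, and those with SNC in a mixed or undecided code lie among them. *Erbb4* is at or near 0 in the 3 tumors coded PDA alone and in 1 SNC tumor, N-7. It is at 7.13 to 29.6 CPM in the 3 tumors with PDA in a mixed or undecided code. Points at 0 are drawn at 0.01.

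The next question was whether the other receptors vary with *Erbb2*. Over 17 mice, no pair with *Erbb2* passed after adjustment over the 6 pairs of members. For *Egfr*, Pearson r was 0.246 (permutation p = 0.345, adjusted p = 0.903) and Spearman rho 0.211 (permutation p = 0.415). For *Erbb3*, r was 0.193 (permutation p = 0.452, adjusted p = 0.903) and rho 0.169 (permutation p = 0.513). For *Erbb4*, r was 0.121 (permutation p = 0.652, adjusted p = 0.957) and rho 0.0822 (permutation p = 0.754).

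Within cohorts these relations also stayed small against their error. In the 9 control mice r with *Erbb2* was 0.330 for *Egfr*, 0.147 for *Erbb3* and 0.362 for *Erbb4*, and in the 8 RhoC mice 0.300, 0.155 and −0.151, with exact permutation p from 0.386 to 0.749. Leaving out the 2 mice farthest from the median of *Erbb2*, those of N-15 and R-18, gave 0.245, 0.324 and 0.0138. Single mice moved each r by over 1.5 times. For *Egfr* it was 0.149 without the mouse of N-15 and 0.439 without that of N-3, and for *Erbb3* 0.0675 without the mouse of N-6 and 0.0735 without that of R-10. For *Erbb4* r ran from −0.142 without the mouse of N-15 alone to 0.249 without that of N-6, and was 0.214 without that of R-2. These values do not show that the receptors vary independently.

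Among the other 3 pairs, *Egfr* and *Erbb4* had the highest correlation, with r = 0.554 (permutation p = 0.0225, adjusted p = 0.135) and rho = 0.585 (permutation p = 0.0160, adjusted p = 0.0958). In control mice r was 0.795 (exact permutation p = 0.0163, adjusted p = 0.0980) and rho 0.895 (exact permutation p = 0.00225, adjusted p = 0.0135), while in RhoC mice r was −0.0582 (exact permutation p = 0.883). The difference between the cohorts was not tested. Without the mice of N-3 and N-7, the 2 farthest from the median of *Egfr* and the 2 with 0 *Erbb4* reads, r over the remaining mice was 0.333 (permutation p = 0.224) and rho 0.396 (permutation p = 0.144), still positive over a narrower range. *Egfr* with *Erbb3* gave r = 0.0373 (permutation p = 0.885) and *Erbb3* with *Erbb4* gave r = 0.0140 (permutation p = 0.957).

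**Figure D4:**
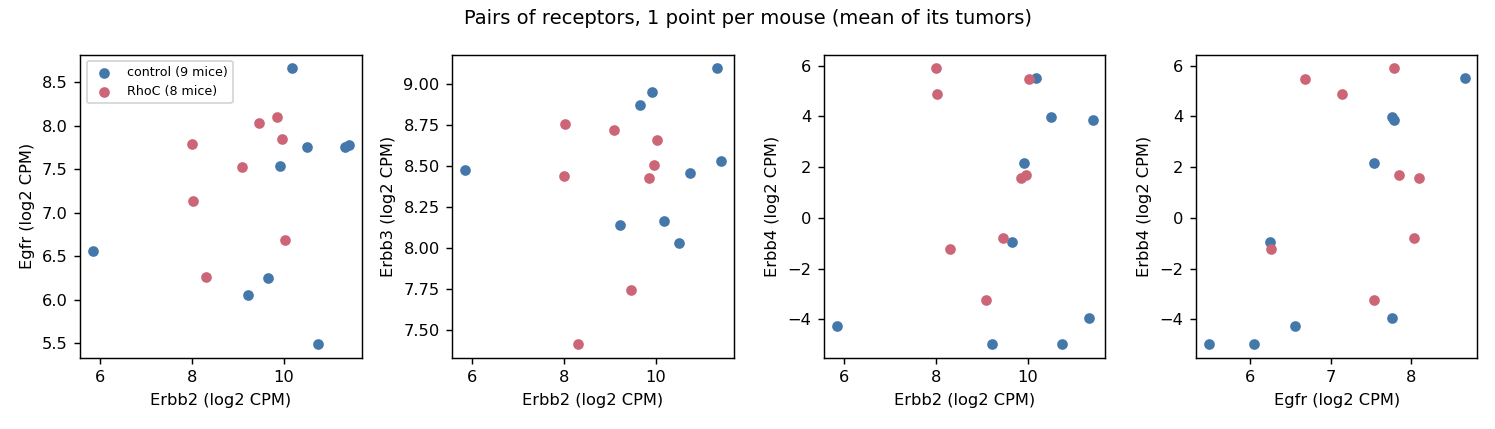
Log2 CPM of pairs of receptors, 1 point per mouse (mean of its tumors; 9 control and 8 RhoC mice). With *Erbb2* on the x axis no trend passed the test in the first 3 panels (r 0.246, 0.193 and 0.121), and in the last panel *Erbb4* is higher where *Egfr* is higher among control mice (r 0.795) but not among RhoC mice (r −0.0582).

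In bulk tissue fewer cells of a type and less RNA per cell cannot be told apart, so each receptor was set beside 8 lists of cell type markers, as 32 relations over 17 mice. After adjustment over the 32, none passed with Pearson r or Spearman rho, and 4 had an unadjusted permutation p under 0.05, all of *Erbb3* and all negative. *Erbb3* was lower where the 6 fibroblast genes were higher (r = −0.649, permutation p = 0.00562, adjusted p = 0.0933; rho = −0.706, adjusted p = 0.0630), with r = −0.544 in control mice and −0.873 in RhoC mice, and −0.632 without the 2 mice farthest in fibroblast level. For the 4 endothelial genes r was −0.638 (permutation p = 0.00583, adjusted p = 0.0933), but rho was −0.436 (permutation p = 0.0800). The other 2 were with the adipocyte list (r = −0.498, permutation p = 0.0439, adjusted p = 0.351) and the skeletal muscle list (r = −0.502, permutation p = 0.0382, adjusted p = 0.351). Without the 2 mice farthest in the level of each list, these r were −0.424 and −0.171. Fibroblast genes summed to 250 to 7176 CPM in controls and 1384 to 11289 CPM in RhoC tumors, with all 6 detected in both cohorts. Against the luminal list r was 0.226 for *Erbb3* (permutation p = 0.379), at −0.0831 in control and 0.483 in RhoC mice. *Egfr* against the basal list gave 0.118 (permutation p = 0.651), at −0.223 in control mice (exact permutation p = 0.553) and 0.667 in RhoC mice (exact permutation p = 0.0760), and against the luminal list 0.0464 (permutation p = 0.860), at −0.106 (exact permutation p = 0.785) and 0.748 (exact permutation p = 0.0267). Against the 5 skeletal muscle genes *Egfr* gave −0.444 (permutation p = 0.0746), at −0.281 in control mice (exact permutation p = 0.450) and −0.817 in RhoC mice (exact permutation p = 0.0251), and −0.635 without the 2 mice farthest in muscle level (permutation p = 0.0112). The median tumor of either cohort had under 1 CPM of these muscle genes in sum. These p within cohorts are unadjusted, and the differences between cohorts were not tested.

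The genes whose log2 CPM followed each receptor most closely over the 21 tumors were picked from 13073 genes, so their correlations are given as a description; tumors share cohort, mouse and library preparation. For *Erbb3* these were *Mlph* (r = 0.857), which encodes the melanosome transport protein melanophilin, *Prr15l* (0.801) and *Cracr2b* (0.765). *Mlph* had r = 0.937 within RhoC tumors and 0.585 within controls. For *Egfr* they were *Wdr47* (0.844), *Pld1*, a phospholipase D (0.833), and *Ntn4*, a netrin of the basement membrane (0.832).

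*Erbb4* was followed by *Car8* (0.814), *Ptprg*, a receptor tyrosine phosphatase (0.765), and *Wdr72* (0.744). For *Erbb2* the closest were *Setd7*, a lysine methyltransferase (0.752), *Clybl* (0.731) and *Acot13*, an acyl-CoA thioesterase (0.716). *Grb7*, which lies beside *Erbb2*, was not among the 3.

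Among the genes that act with the receptors, 1 ligand rose and 1 adaptor fell. *Tgfa*, which encodes TGF-alpha, a ligand of EGFR, was at 16.4 to 84.8 CPM in controls (median 43.9) and 78.4 to 538 CPM in RhoC tumors (median 137), with 12 of 12 RhoC tumors above the control median. The fitted difference was 1.91 on the log2 scale (SE 0.40; edgeR adjusted p = 0.0441). This call is close to the threshold. It was lost without any 1 of N-1, N-4, N-6, N-7, N-8, N-9, N-17, R-6, R-13, R-14 and R-16 (log2 fold change 1.66 to 2.02, adjusted p 0.0509 to 0.0753). It was also lost with counts summed per mouse (1.63, adjusted p = 0.0986), with mouse as a random effect (1.70, adjusted p = 0.164), without mouse P497 (1.82, adjusted p = 0.166) and without the 3 SCC (1.25, adjusted p = 0.107).

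Of the 11 ligand genes, 10 were tested, 1 passed and it was higher (0.0932% of all genes tested were called higher). At an unadjusted p under 0.05 there were 5 of the 10, against 20.5% of all genes tested. All 5 were higher in RhoC tumors (10.5% of all genes tested were higher at that p). The median log2 fold change of the 10 was 1.52, against −0.01 for all genes tested. The second smallest p was that of *Nrg1*, a ligand of ErbB3 and ErbB4, with a log2 fold change of 2.66 (adjusted p = 0.101). It was at 3.13 to 30.6 CPM in controls (median 13.4) and 1.42 to 313 CPM in RhoC tumors (median 22.4). Of the RhoC tumors, 8 of 12 were above the control median. *Nrg3* had at most 14 reads in a tumor and was not tested. The highest *Tgfa* (538 CPM) was in R-6 and the highest *Nrg1* (313 CPM) in R-13, which are both SCC and which also had the highest sums of basal markers, at 17131 and 12452 CPM; the part of basal cells in these values was not tested.

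*Grb7*, an adaptor that binds ErbB2 and is commonly amplified along with it, was at 42.2 to 2422 CPM in controls (median 1172) and 16.8 to 168 CPM in RhoC tumors (median 104). The only control below the highest RhoC tumor was N-15. The log2 fold change was −3.74 (SE 0.49; adjusted p = 9.98e-04), and −3.91 without N-15. Tumors with like *Erbb2* levels differed in *Grb7*: R-7, with 1851 CPM of *Erbb2*, had 168 CPM of *Grb7*, and N-3, with 1708 CPM of *Erbb2*, had 1862.

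The 17 adaptor and effector genes had 1 call, *Grb7* (0.129% of all genes tested were called lower). At an unadjusted p under 0.05 there were 9, of which 4 were higher and 5 lower in RhoC tumors, against 20.5% of all genes tested. The median log2 fold change of the 17 was −0.03, over members on both sides of 0. The next smallest p was that of *Gab2*, a docking protein, at −0.50 (adjusted p = 0.118). Of 17 genes that regulate the receptors, 0 passed the edgeR test. At an unadjusted p under 0.05 there were 4, against 20.5% of all genes tested. All 4 were lower in RhoC tumors (9.93% of all genes tested were lower at that p). The smallest p were those of *Muc1*, a membrane mucin that binds ErbB receptors (log2 fold change −2.17, adjusted p = 0.0773), and *Errfi1*, a feedback inhibitor of EGFR and ErbB2 (−0.78, adjusted p = 0.0886).

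Of 6 transcription factors known to act on *Erbb2*, 5 were tested and 0 passed, with 1 at an unadjusted p under 0.05, against 20.5% of all genes tested. That gene was *Etv4* (also known as PEA3), an ETS factor, at 16.1 to 70.5 CPM in controls and 37.8 to 231 CPM in RhoC tumors, with a log2 fold change of 1.07 (adjusted p = 0.104). *Elf3*, another ETS factor, gave −0.81 on the log2 scale (adjusted p = 0.409). *Gata4* was too low in most tumors to be tested.

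**Figure D5:**
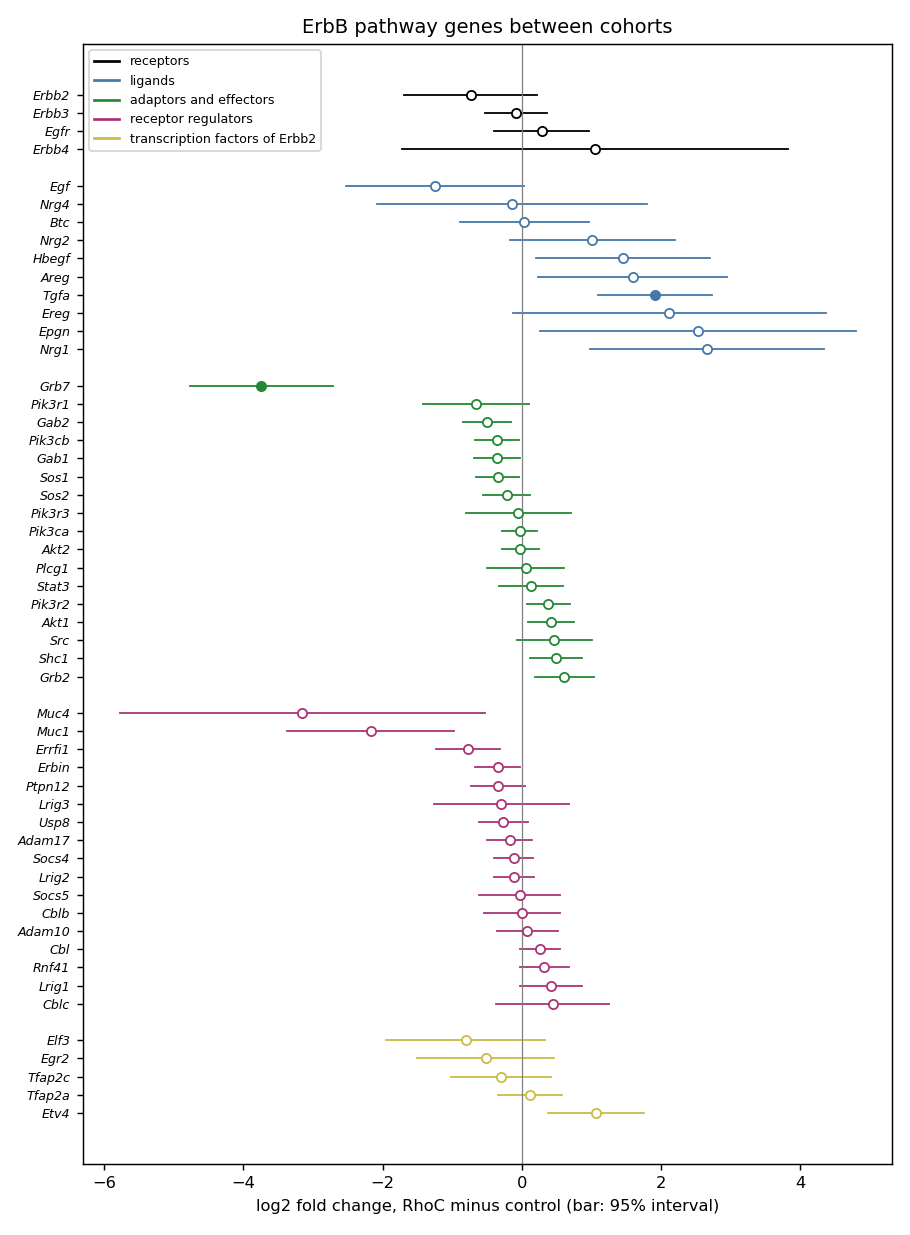
Log2 fold change of each tested ErbB pathway gene, RhoC minus control, from edgeR, with 95% intervals; filled points passed an adjusted p of 0.05. Only *Tgfa* (1.91) and *Grb7* (−3.74) are filled, and the intervals of the 4 receptors all cross 0.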

How the data were processed

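Total RNA of each tumor was depleted of ribosomal RNA and sequenced in pairs from stranded libraries. The authors trimmed reads (Trim Galore 0.5.0), aligned them with STAR 2.6.0c to GRCm38.p6 and deposited raw counts per gene from HTSeq 0.6.1p2, without normalization. The annotation release and strand setting are not given in the sources used here. FPKM values were computed and deposited by the authors and were used only to compare genes. The deposited tables also hold the authors' own fold changes and p-values, which were not used.

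Counts were tested with edgeR 4.0.16 in R 4.3.3 (filterByExpr by cohort, TMM, quasi-likelihood test, no covariates, Benjamini-Hochberg over 19315 genes). An SE is the size of the log2 fold change divided by the root of F. Log2 CPM values have a prior count of 2. Tests of 1 value permuted cohort labels over mice, exactly. Correlations used means per mouse, with 100000 permutations (exact under 10 mice); marker levels are log2(summed CPM + 1). Replicates are tumors, and tumors of 1 mouse are not independent. Alternatives are in the closing section; DESeq2 1.42.0 and limma 3.58.1 served for 2 of them. The steps were tested on simulated data.

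The members, gene lists and tests were chosen with earlier results of these data known. The sign-flip test of the order per length was added after the values were seen. Named genes are the 4 members, listed genes with an adjusted p under 0.05, the 2 with the smallest p in each list, and the 3 genes most like each member. *Rhoc*, *Mien1*, *Gata4* and *Nrg3* were named outside this rule, after their values were seen. The labels give R-21 a mouse that the study lists for another RhoC tumor.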

Additional observations from a re-analysis of the deposited data

Results flagged for a closer look

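*Erbb2* in the control N-15 stood apart from the other 8 controls, at 5.86 log2 CPM. Its gap to the nearest control was 0.607 of the whole range of the group, above Dixon's 95% critical value for 9 samples. Of the 4 receptors only *Erbb2* was singled out this way, in 8 comparisons of a lowest or highest control, and chance alone marks about 1 group in 20. The 12 RhoC tumors were not examined this way.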

How the results depend on the processing

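None of the 4 receptors passed an adjusted p of 0.05 in any of the 31 distinct alternative fits, 21 of which left out 1 tumor. *Erbb2* changed sign in 1 of them. Replicate numbers 1, 6, 7 and 15 occur in both cohorts but are sequencing IDs, and same-numbered tumors did not deviate together (correlations −0.24, −0.18, −0.0029 and 0.022). With the replicate block the *Erbb2* log2 fold change was 0.77 (adjusted p = 0.909), against −0.06 in the same 8 tumors without it, a fit chosen after seeing the data, and 0 genes were called by edgeR in both (1346 and 2119 at an unadjusted p under 0.05).

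The 43 genes called became 1452 with DESeq2, which used its own size factors and all 38730 genes with a count. They became 438 with the Gata4(loxP/+) controls alone, 27 with library size, 26 without the SCC and 19 without N-1. They became 3 each with counts summed per mouse, with mouse as a random effect and without mouse P497. Leaving out 1 tumor gave 14 (N-9) to 346 (N-15): over 1.5 times fewer without N-1, N-7, N-8, N-9, R-6, R-13, R-14, R-15, R-16 or R-21, and over 1.5 times more without N-6, N-15, R-10, R-12 or R-18. Calls higher in RhoC tumors were 41.9% of calls by TMM, 25.9% by library size and 54.9% by DESeq2. The cause of these shifts was not tested.

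The *Erbb2* difference over mice was −1.28 to −0.58 with 1 mouse left out, and −1.26 with the Gata4(loxP/+) controls, a setting that drops N-15 and N-17 together. The other differences over mice kept their direction and stayed above the threshold. The correlation of *Erbb2* with *Erbb4* was −0.151 in RhoC mice and −0.142 to 0.249 with 1 mouse left out. That of *Egfr* with *Erbb3* was −0.126 by library size, −0.0061 over tumors, −0.0233 in control mice and −0.0307 without the 2 farthest mice, but 0.247 in RhoC mice. That of *Egfr* with *Erbb4* was −0.0582 in RhoC mice. That of *Erbb3* with *Erbb4* was −0.0486 by library size, −0.237 in control mice and −0.162 without the 2 farthest mice, but 0.452 in RhoC mice and 0.230 over tumors. No relation of a receptor with a marker list passed over tumors either. *Tgfa* lost its call in 17 of these 31 fits (adjusted p 0.0509 to 0.702 where lost, log2 fold change 1.25 to 2.44), 11 of which left out a single tumor, and *Grb7* in 2, both with 8 tumors.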
